A study of Rattus norvegicus with 288 samples.

Results

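The genes described here encode the machinery of oxidative phosphorylation. They were chosen by name: every gene on the array whose symbol begins with Nduf, Uqcr, Atp5 or Cox followed by 4 to 8, or is one of Sdha, Sdhb, Sdhc and Sdhd, measured by its brightest probe set in each tissue. This gave 86 genes of 14218 genes on probe sets that carry 1 gene symbol. Not all of them are subunits. The names took in 34 subunits of complex I, 6 factors that assemble complex I (Ndufaf1, Ndufaf3, Ndufaf4, Ndufaf5, Ndufaf7 and Ndufaf8), 4 subunits of complex II, 7 of complex III, 16 of complex IV and 15 of complex V, together with Ndufa4l2, Cox7a2l, the ATP synthase inhibitor Atp5if1 and the pseudogene Cox6c-ps1. A further 7 probe sets with matching names were left out because each also carries the symbol of another gene.

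The inner mitochondrial membrane holds the respiratory chain. Complexes I and II pass electrons from NADH and succinate to coenzyme Q, complex III hands them to cytochrome c, and complex IV reduces oxygen. The proton gradient that complexes I, III and IV build is used by complex V to make ATP. Most subunits are encoded in the nucleus, and several complex IV subunits come in a general form and a form made in heart and skeletal muscle. Heart muscle, the proximal tubule of the kidney and the hepatocyte all rely heavily on this pathway.

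RNA was measured in the heart, the left kidney and the liver of 96 young adult male Sprague-Dawley rats, on 288 Affymetrix rat whole-genome arrays, of which 286 were used. Each rat carried a femoral vein cannula and received a 30 minute intravenous infusion of oxaliplatin, a platinum drug, at 15 mg/kg or of its vehicle D5W (dextrose in water). An oral dose followed: sunitinib at 5 mg/kg, its vehicle sterile water, sorafenib at 25 mg/kg, or its vehicle F68/PG/PEG400. Both oral drugs are kinase inhibitors that act on the vascular endothelial growth factor receptors. Tissue was taken 1, 6 or 24 h after dosing was complete, which made 8 treatments at 3 times in 3 tissues, 72 groups of 4 rats. The rats carried no tumour and were sampled after a single round of dosing. The heart sample was the apex with both ventricles, and the liver sample came from the left lateral and median lobes. All levels below are log2 intensities, so that a difference of 1 is a doubling, and every adjusted p is from limma with Benjamini-Hochberg adjustment over all genes tested in that tissue.

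Several features of the arrays touch the results. The water and sunitinib rats were dosed on 1 day and the F68/PG/PEG400 and sorafenib rats on another, so that vehicle and day cannot be told apart. The array codes separate the tissues from each other and the 24 h arrays from the 1 h and 6 h arrays, so neither tissue nor the 24 h time can be told apart from array code. A liver array and a kidney array from the sorafenib rats at 24 h were left out, because each carried the other tissue's markers: Umod, made in the thick ascending limb, stood at 6.40 in the kidney array against 14.48 to 14.51 in the other 3 of its group. All other arrays showed the markers of their labelled tissue, though some carried a little of another tissue. The median of the hepatocyte markers reached 9.70 in a kidney array (replicate 2 of D5W then sorafenib at 24 h) and 8.25 in a heart array, against medians of 6.03 and 5.57 over the kept arrays of those tissues, and that of the heart muscle markers reached 8.95 in replicate 1 of kidney D5W then sorafenib at 1 h, against 5.21. Replicate 1 of kidney oxaliplatin then sunitinib at 1 h stood apart in its distribution, with an overall median of 7.81 and a 95th percentile of 11.82, where no other kidney array was above 7.40 and 11.70. Kidney results that its absence moved are given without it as well. In the heart, 2 groups stood apart in the beta-actin control, in which a larger difference between the 3′ and 5′ probe sets marks shorter RNA or labelled product. Its median was 0.752 in the 24 h D5W then sterile water group and 0.684 in the 6 h D5W then sorafenib group, against 0.240 to 0.469 in the other 22 heart groups. The main results that rest on either group are also given with this difference as a covariate.

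The promoters of 3 members are printed first. Cox8b and Cox8a are a pair of isoforms that differed in opposite directions between heart and kidney. Ndufaf4 had the clearest oxaliplatin response in what follows. RefSeq promoter windows, from 250 bases before to 50 bases after the start, were matched for 78 of the 86 members (build GRCr8). Capitals mark matches, on either strand, to the motif letters named in the next paragraph.
Cox8b, chr1:205408224-205408523, minus strand: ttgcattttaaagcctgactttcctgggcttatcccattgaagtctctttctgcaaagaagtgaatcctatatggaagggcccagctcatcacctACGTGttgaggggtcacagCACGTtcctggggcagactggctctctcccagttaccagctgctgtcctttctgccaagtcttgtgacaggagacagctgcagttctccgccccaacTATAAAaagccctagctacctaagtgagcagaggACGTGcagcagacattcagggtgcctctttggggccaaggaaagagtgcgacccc
Cox8a, chr1:213833574-213833873, minus strand: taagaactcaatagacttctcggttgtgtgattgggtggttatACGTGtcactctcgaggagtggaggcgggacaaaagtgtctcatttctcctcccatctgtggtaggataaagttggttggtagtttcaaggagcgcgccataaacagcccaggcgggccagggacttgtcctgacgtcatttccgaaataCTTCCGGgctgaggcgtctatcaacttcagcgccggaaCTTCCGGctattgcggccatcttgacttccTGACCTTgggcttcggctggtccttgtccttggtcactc
Ndufaf4, chr5:43401545-43401844, plus strand: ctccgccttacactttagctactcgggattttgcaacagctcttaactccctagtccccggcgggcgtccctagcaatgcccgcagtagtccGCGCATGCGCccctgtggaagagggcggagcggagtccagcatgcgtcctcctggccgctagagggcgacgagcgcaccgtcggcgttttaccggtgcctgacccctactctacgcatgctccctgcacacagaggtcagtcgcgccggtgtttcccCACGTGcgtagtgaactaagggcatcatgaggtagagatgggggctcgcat

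The search took 6 motifs. The NRF-1 letters GCGCATGCG stood in 7 of 78 member windows (8.97%), against 1.66% of all 27457 RefSeq windows of the same length. The GABP/ETS letters CCGGAAG stood in 22 (28.2% against 9.22%), the YY1 letters AAGATGGCG in 11 (14.1% against 1.93%) and the ERR half-site AAGGTCA in 11 (14.1% against 4.37%). Hypoxia response core letters, ACGTG, stood in 20 member windows (25.6% against 19.7%), and the TATA box letters TATAAA in 8 (10.3% against 14.3%). No motif overlapped a different motif in the 3 windows printed. Cox8a, the general isoform of a small complex IV subunit, held 2 GABP/ETS matches, at -57 and -19 from the start, an ERR half-site at 12 and a hypoxia core at -207. Its muscle isoform Cox8b held the TATA letters at -39 and hypoxia cores at -155, -136 and -5. Ndufaf4 held NRF-1 matches at -158 and -157, read on opposite strands of the same stretch, and hypoxia core letters at -1 and 1, the latter being the same 6 bases read on both strands. A member window held a median of 20 CpG dinucleotides against 7 over all windows. Cox8b held 5, as did the window of the muscle isoform Cox6a2, while Cox8a held 16 and Ndufaf4 27. The NRF-1, GABP/ETS, YY1 and hypoxia core letters each contain CG, and the windows compared were not matched for CpG. The part of CpG content in the motif shares was not tested. These are matches of letters only.

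In rats given D5W and an oral vehicle (24 arrays in each tissue), the median level over the 86 members was 13.31 in the heart, 13.05 in the kidney and 12.33 in the liver. Over all 24 groups of a tissue, drug groups included, the tested members varied little between rats of 1 group. Their median SD was 0.0423 in the heart (84 members), 0.0502 in the kidney (84 members) and 0.0739 in the liver (80 members). Other genes as bright as the members' lower quartile had median SDs of 0.051 (152 genes), 0.0749 (510 genes) and 0.1099 (806 genes). Cox6b2 and Cox7b2, isoforms of complex IV subunits known from testis, had means under 6 in every tissue.

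The heart and liver were separated by nearly the whole chain. In the fit over the 72 vehicle arrays, 79 of 84 tested members were higher in the heart than in the liver and 3 were lower, where 93% of the 12635 genes differed (39% higher, 54% lower). The members' median difference was 0.85 log2, against -0.16 over all genes. All 34 complex I subunits but 1, all 15 complex V subunits and all 7 complex III subunits were higher in the heart. The 3 lower members were Cox8a (-0.46), Cox6a1 (-0.30) and the assembly factor Ndufaf5 (-0.26). Kidney exceeded liver for 83 of 84 members, with Uqcrq, a complex III subunit, as the exception; here 93.9% of genes differed and 73.5% were higher in the kidney. The members' median of 0.73 stood beside 0.54 over all genes.

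Scaling set how far these counts can be read. The kidney arrays had higher overall medians (7.32 to 7.81) than the heart arrays (6.63 to 6.69) and liver arrays (6.66 to 6.78). Once each array was centred on its own median, 46 members were higher and 31 lower in the kidney than in the liver, and 46 were higher under all 5 settings tried. Between heart and kidney, 56 members were higher in the heart and 21 lower as deposited (94.9% of genes differed, 18% higher and 77% lower), 78 and 5 after centring, and 73 and 8 after quantile normalization over the tissues. Under all 5 settings 53 members were higher in the heart and 5 were higher in the kidney: Atp5if1, Cox6a1, Cox8a, Ndufaf1 and Ndufaf7. For heart against liver the corresponding counts were 77 and 2. The labels do not tie the 3 tissues of a rat together. With the position in the array code as a random block, the correlation over 24 blocks was 0.1092.

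The widest tissue differences belonged to the paired isoforms of complex IV. Cox6a2, the muscle form of a regulatory subunit, ran from 14.39 through a median of 14.45 to 14.50 over the 24 heart arrays, from 5.89 through 6.27 to 6.69 in the kidney, and from 5.47 through 5.66 to 5.81 in the liver. No heart array overlapped any other tissue, and the measured heart to kidney difference was 8.20 ± 0.03 (SE) log2 (adjusted p = 1.58e-86). The deposited values carry no detection flag, so an array under log2 6, the level of the filter for testing, was set to 6 for folds. On that basis Cox6a2 was at least 292-fold higher in the heart than in the kidney, where 3 of 24 arrays were under 6, and at least 351-fold higher than in the liver, where all 24 were. Cox8b lay at 14.34 to 14.45 in the heart (median 14.38), at 6.50 to 10.50 in the kidney (median 7.74) and at 4.70 to 5.34 in the liver (median 5.03). The heart exceeded the kidney 85.9-fold (6.42 ± 0.18, adjusted p = 2.46e-40) and, with all 24 liver arrays under log2 6, the liver at least 335-fold. Cox7a1, the muscle form of a further subunit, had heart values of 10.49 to 11.74 (median 11.15), kidney values of 6.75 to 7.33 (median 7.10) and liver values of 6.38 to 6.83 (median 6.53), a heart to kidney difference of 4.08 ± 0.05, 16.9-fold.

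The general isoforms ran the other way between heart and kidney. Cox8a lay at 13.03 to 13.32 in the heart (median 13.23), 14.33 to 14.47 in the kidney (median 14.41) and 13.57 to 13.72 in the liver (median 13.66). The heart was thus lowest with no overlap, 1.21 ± 0.01 below the kidney, a 2.32-fold difference. Cox6a1 lay at 12.54 to 13.00 in the heart and 13.77 to 13.89 in the kidney, with the heart 1.04 ± 0.02 lower. Both directions held under every scaling tried, at -0.52 for Cox8a and -0.35 for Cox6a1 in the setting closest to 0. Against the liver only Cox8a kept its direction, since Cox6a1 turned from lower to 0.25 higher in the heart under quantile normalization over the tissues.

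**Figure D1:**
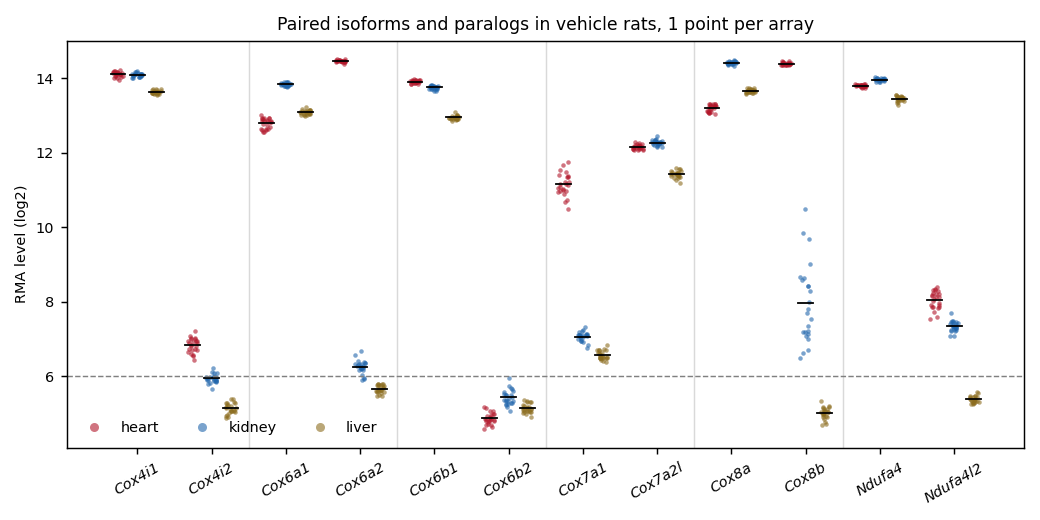
Log2 intensity of paired isoforms (vertical axis) in vehicle rats, 24 arrays in each of heart, kidney and liver; points are arrays, horizontal lines are means and the dashed line marks log2 6. Cox6a2, Cox8b and Cox7a1 stand highest in the heart, Cox6a1 and Cox8a highest in the kidney, and kidney Cox8b spreads from 6.50 to 10.50.

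Other members also differed between tissues beyond their spread. Atp5if1, which blocks ATP synthase from running backwards, had means of 11.58 ± 0.16 (SD, n = 24) in the heart, 12.67 ± 0.10 in the kidney and 10.14 ± 0.14 in the liver, and its order of kidney, heart, liver held in all 5 settings. Ndufa4l2, a relative of the complex IV subunit Ndufa4 that is known as a hypoxia-induced gene, had means of 8.05 ± 0.24, 7.34 ± 0.14 and 5.39 ± 0.09. Cox4i2, the alternative form of Cox4i1, had means of 6.84 ± 0.19, 5.94 ± 0.11 and 5.14 ± 0.14, and only its heart mean was above 6. Complex II is also an enzyme of the tricarboxylic acid cycle, and 3 of its 4 subunits, Sdha, Sdhc and Sdhd, had no settled order between heart and kidney, with Sdha at 13.30 and 13.52, and Sdhc at 13.20 and 13.57, differences that turned when arrays were centred. In the liver Sdha was lower, at 12.15.

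Kidney Cox8b varied more than any isoform above, with an SD of 1.07 over the 24 vehicle arrays. Its level was set against the mean of 5 fat cell markers (Adipoq, Fabp4, Plin1, Cfd and Lep). Lep stayed under log2 6 in all 24 arrays, at 5.24 to 5.95. The permutations shuffled the 24 arrays over all times and vehicles. Pearson's r was 0.95 and Spearman's rho 0.94 (permutation p = 1e-05 for each, the smallest that 100000 permutations can give; adjusted p = 3e-05 over 3 relations). The relation held without the 2 arrays farthest from the median (r = 0.92), within the 16 arrays of 1 h and 6 h (0.93) and within the 8 of 24 h (0.97). The lowest array, at 6.50, had a marker mean of 6.08, and the highest, at 10.50 in the same 24 h D5W then sterile water group, had 9.33. Ucp1 and Cidea, genes of brown fat looked at after these values were seen, ranged from 4.87 to 12.10 and from 6.87 to 11.00. For the other muscle isoforms the correlations were not past the threshold, with r = 0.20 for Cox7a1 (permutation p = 0.35, adjusted 0.53) and -0.09 for Cox6a2 (permutation p = 0.68, adjusted 0.68). In a piece of whole organ, fewer cells of a type and less RNA per cell cannot be told apart.

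Oxaliplatin was compared with D5W over both oral vehicles, 8 rats against 8 at each time. The clearest member was Ndufaf4, an assembly factor of complex I, in the kidney at 6 h. Its levels after D5W were 10.61, 10.62, 10.70 and 10.58 with water and 10.65, 10.72, 10.79 and 10.56 with F68/PG/PEG400. After oxaliplatin Ndufaf4 stood at 11.24, 11.44, 11.00 and 11.20 with water and at 11.27, 10.99, 10.96 and 11.01 with F68/PG/PEG400. All 8 oxaliplatin rats lay above all 8 D5W rats. The rise was 0.48 ± 0.06 log2, 1.40-fold (adjusted p = 1.54e-10), and was seen within each dosing day, at 0.59 ± 0.08 with water and 0.37 ± 0.08 with F68/PG/PEG400. At 1 h the difference was 0.05 (adjusted p = 0.684), and at 24 h it was 0.16 ± 0.06 (adjusted p = 0.061).

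Liver Ndufaf4 at 6 h was higher by 0.35 ± 0.11 (adjusted p = 0.0312), with D5W values of 9.34, 9.24, 9.43 and 8.90 (water) and 9.53, 9.30, 9.55 and 9.31 (F68/PG/PEG400). The oxaliplatin values were 10.10, 9.31, 9.74 and 9.40 and then 9.68, 9.86, 9.58 and 9.71. The 2 infusions overlapped there, and the Ndufaf4 call was lost in 6 of 21 alternatives, including each vehicle alone (adjusted p = 0.122 with water, 0.442 with F68/PG/PEG400). In the heart the 6 h difference was -0.05 ± 0.05 (adjusted p = 0.661). Whether the tissues differed in this response was not tested.

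**Figure D2:**
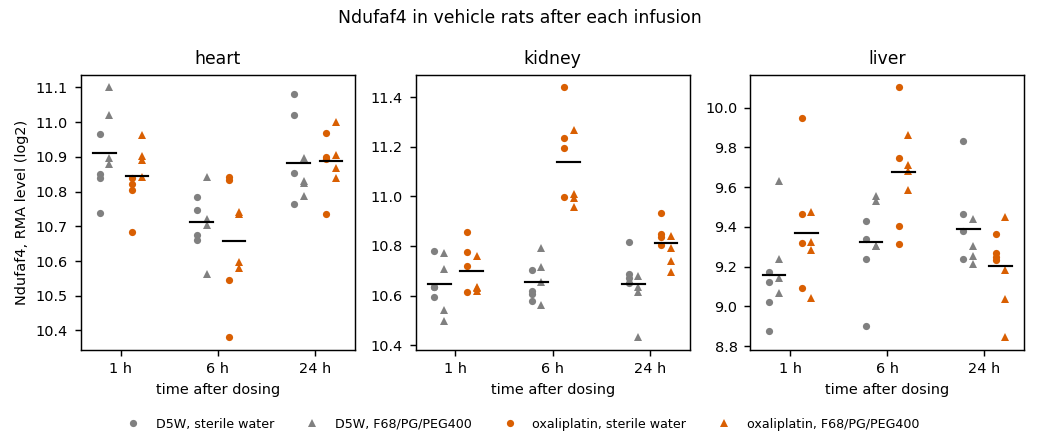
Log2 intensity of Ndufaf4 (vertical axis) after D5W or oxaliplatin at 1, 6 and 24 h after dosing in each tissue; circles are water rats, triangles F68/PG/PEG400 rats and lines means of 8. At 6 h all 8 kidney oxaliplatin values, from 10.96 to 11.44, lie above the D5W values, from 10.56 to 10.79.

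Few other members were called in the kidney at 6 h, although many genes were. Of 84 members 3 rose and 5 fell, beside 20.6% of all genes. The counts were 3 and 9 without the kidney array that stood apart in its distribution, and 4 and 9 with array weights. The other risers were Ndufaf1, a further assembly factor (0.37, adjusted p = 0.0295), and Ndufa4 (0.06). Those that fell included Ndufs1 and Ndufv2, iron-sulfur subunits of the electron input arm of complex I (-0.13 and -0.11), Ndufs3 (-0.09) and Atp5pf, a stalk subunit of complex V (-0.10). Among the other genes of the pathway, 5 of 16 electron carrier and coenzyme Q genes fell and none rose, led by Pdss2, which makes the coenzyme Q side chain (-0.63). Esrrg, a nuclear receptor that drives mitochondrial genes, fell by 0.99 (adjusted p = 1.21e-14). It is a single gene from the listed regulators of mitochondrial biogenesis, and the count for that list in the kidney is not given here. Of 8 macrophage markers 1 fell, and no fibroblast marker was called.

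At 24 h in the kidney 12 members rose and 2 fell after oxaliplatin, where 7.8% of genes were called. Without the array that stood apart 17 rose and 2 fell, and leaving out 1 array at a time gave 9 to 16 calls. The risers included 3 of 6 assembly factors and 5 of 34 complex I subunits. Ndufaf3, an assembly factor, had D5W values of 10.68, 10.44, 10.66 and 10.68 with water and 10.71, 10.64, 10.74 and 10.80 with F68/PG/PEG400, and oxaliplatin values of 10.85, 10.93, 10.93 and 10.95 and then 10.89, 10.85, 10.85 and 10.85. Again no array overlapped, and the rise was 0.22 ± 0.04 (adjusted p = 3.80e-05). Within each vehicle Ndufaf3 differed by 0.30 (adjusted p = 0.000138) and 0.14 (adjusted p = 0.202). Ndufaf7, a methyltransferase needed for complex I, rose by 0.16 and Ndufaf5 by 0.15, and Atp5if1 rose by 0.12, a difference of -0.03 when its probe sets were averaged. Ndufb5 (-0.10) and Ndufa1 (-0.08) fell. With either vehicle alone only 3 members were called. Beside these, 2 of 4 erythroid markers were lower (Alas2 -1.04), as were 2 of 8 macrophage markers. Their part in the result was not tested.

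Oxaliplatin moved few members in the liver. None was called at 1 h (limma; 3 of 80 at an unadjusted p under 0.05; 3.46% of genes called). At 6 h Ndufb2 was 0.10 lower beside the rise of Ndufaf4 (10.4% of genes called). At 24 h the 3 called members were lower: Ndufa12 (-0.18), Sdhb, the iron-sulfur subunit of complex II (-0.14), and Ndufv2 (-0.13), with 6.42% of genes called. With water rats alone none was called, leaving out 1 array gave 0 to 4, and array weights gave 6. In the kidney at 1 h no member was called by limma and none had an unadjusted p under 0.05, though 9.41% of genes were called. The liver macrophage markers fell for 5 of 9 at 6 h and 7 of 9 at 24 h; their part in these differences was not tested.

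In the heart no member was called after oxaliplatin at 1 h or 6 h by limma (1 and 4 of 84 at an unadjusted p under 0.05; 1.23% and 0.866% of genes called). At 24 h 10 members rose and none fell, where 19.2% of genes were called and 14.5% rose. With water alone the count was 9 (22.1% of genes), and with F68/PG/PEG400 alone it was 0 (0.23% of genes). The beta-actin covariate left 5, and leaving out 1 array at a time gave 4 to 11, lowest without replicate 1 of D5W then sterile water. Ndufa3, an accessory complex I subunit, rose by 0.14 ± 0.03 (adjusted p = 5.40e-05; 0.13 with the covariate, adjusted p = 0.00142), with differences of 0.25 in the water rats and 0.03 in the F68/PG/PEG400 rats (adjusted p = 0.819). All 4 erythroid markers tested were lower in the oxaliplatin hearts at that time (Alas2 -1.02), as were 4 of 7 hepatocyte markers. Their part in the result was not tested.

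The 24 h heart comparisons need to be read beside each other, since 3 of them share the same 4 D5W then sterile water rats, the group with the highest beta-actin difference. Ndufaf3 stood at 10.55, 10.54, 10.65 and 10.59 in those rats. It stood at 10.80, 10.94, 10.88 and 10.92 after D5W then sunitinib, at 10.73, 10.84, 10.72 and 10.88 after oxaliplatin then water, and at 10.76, 10.84, 10.79 and 10.68 after D5W then F68/PG/PEG400. The shared control was below all 12 other rats. Its Ndufaf3 differences were 0.30 ± 0.05 for sunitinib (adjusted p = 5.74e-07), 0.21 ± 0.05 for oxaliplatin with water (adjusted p = 0.000543) and 0.18 ± 0.05 for F68/PG/PEG400 (adjusted p = 0.00289). In groups that do not use that control, Ndufaf3 was 10.72, 10.80, 10.78 and 10.67 after oxaliplatin then sunitinib, -0.05 from its own water control (adjusted p = 0.908), and oxaliplatin differed from D5W by 0.02 with F68/PG/PEG400 (adjusted p = 0.932).

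Over all members, the sunitinib comparison after D5W at 24 h called 21 members higher and 1 lower in the heart, where 25.4% of genes were called, 19% higher. They included 12 of 34 complex I subunits and 3 of 6 assembly factors. Ndufaf7 and Ndufaf3 each rose by 0.30, Ndufv3, a small flavoprotein-arm subunit, by 0.27, and Ndufaf5, an assembly enzyme, by 0.25, while the pseudogene Cox6c-ps1 differed by -0.27. Of 7 fibroblast markers 5 fell in the same comparison, and their part in it was not tested. Ndufa4l2, at 7.59, 7.85, 7.53 and 7.73 in the water rats, rose by 0.29, a call lost with the beta-actin covariate (0.24, adjusted p = 0.0815). With that covariate 10 members were called, 9 higher and 1 lower, and Ndufaf3 kept a difference of 0.31 (adjusted p = 7.96e-05). After oxaliplatin no member was called for sunitinib at 24 h by limma (1 of 84 at an unadjusted p under 0.05; 0% of genes). The change of the Ndufaf3 effect between infusions was -0.35 ± 0.07 (adjusted p = 9.44e-05), and that of Ndufa3 -0.26 ± 0.06 (adjusted p = 0.000455).

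Across all 24 heart groups, the 2 groups with divergent beta-actin had the lowest 2 means for 12 of 84 members (14.3%), against 1694 of 11317 genes (15%). They had the highest 2 means for 6 members (7.14%), against 739 genes (6.53%). Ndufv3 averaged 12.61 in the 24 h water group and 12.72 in the 6 h sorafenib group, with the other 22 groups at 12.80 to 13.15. Uqcrc2, a core subunit of complex III, averaged 13.74 in both, with the others at 13.36 to 13.72. The 2 groups differ in oral dose, time and dosing day.

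At 1 h and 6 h sunitinib moved few heart members. After D5W 3 rose at 1 h (Ndufs1 0.15, Uqcrc2 0.15 and Sdhd, a membrane anchor of complex II, 0.11; 10% of genes), and none of these was called with the beta-actin covariate. None was called at 6 h (limma; 4 of 84 at an unadjusted p under 0.05; 0% of genes). After oxaliplatin none was called at 1 h or 6 h (limma; 2 and 3 at an unadjusted p under 0.05; 0% and 0.00884% of genes). Kidney and liver members were not called for sunitinib after D5W or after oxaliplatin at any of the 3 times, by limma. At an unadjusted p under 0.05 the kidney gave 10, 1 and 1 members after D5W (0.0244%, 0% and 0% of genes called) and 18, 5 and 1 after oxaliplatin (0.244%, 0% and 0%). The liver gave 5, 1 and 13 after D5W (0%, 0% and 0.964%) and 0, 0 and 3 after oxaliplatin (0% at each time). The kidney oxaliplatin then sunitinib group at 1 h holds the array that stood apart, its replicate 1. Leaving out replicate 2, 3 or 4 of this group in turn, which keeps that array among 3, gave 5, 6 and 11 called members, and leaving out replicate 1 gave 0.

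**Figure D3:**
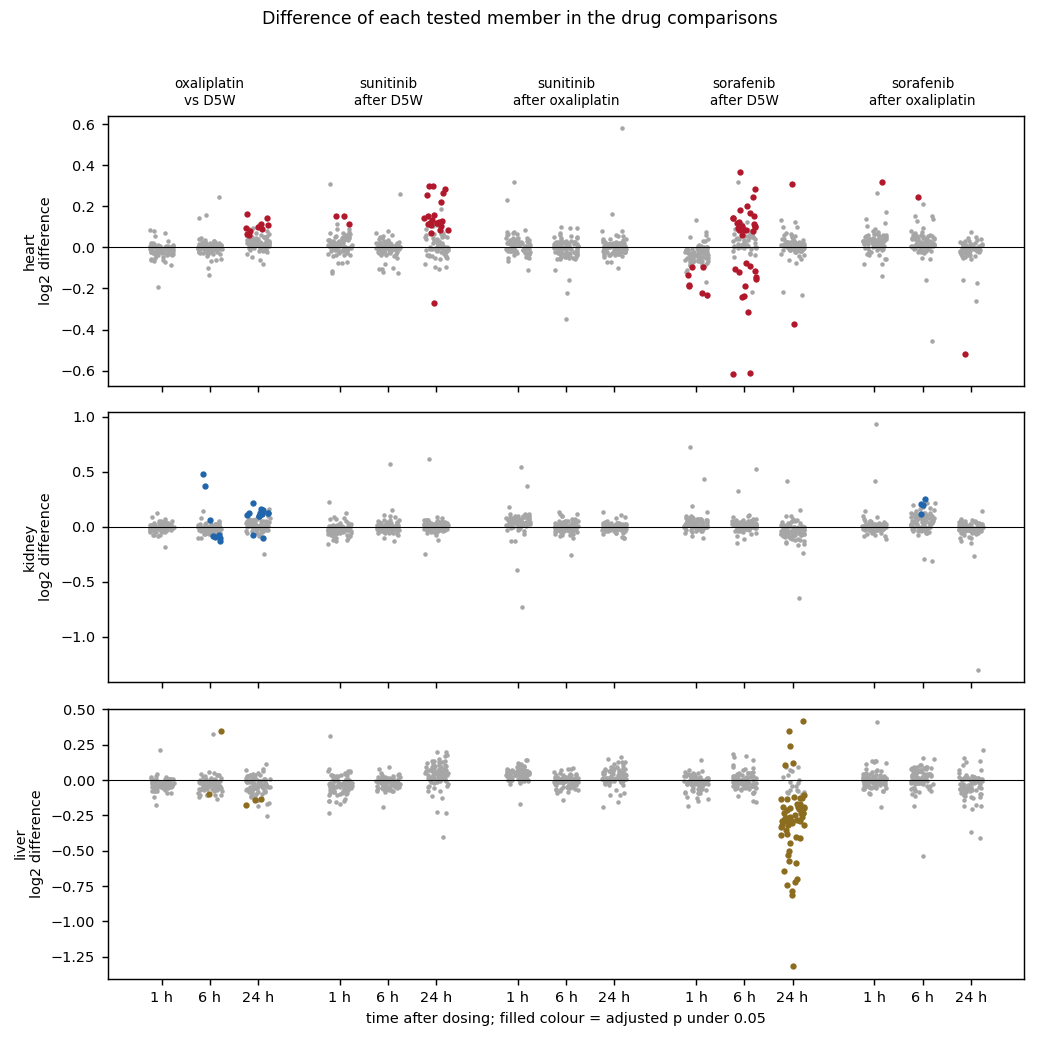
Log2 differences of each tested member (vertical axis) by comparison and time after dosing, with 1 row for each tissue; coloured points have an adjusted p under 0.05 and grey points do not. Liver sorafenib after D5W at 24 h holds the most called members, 60 of 80, followed in the heart by sorafenib after D5W at 6 h with 34 of 84.

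At 6 h the heart members Ndufa4l2 and Cox4i2 were lower with sorafenib after D5W. Both are known as alternatives to a standard complex IV subunit. Ndufa4l2 stood at 8.09, 7.85, 8.31 and 8.13 in the D5W then F68/PG/PEG400 rats at 6 h and at 7.56, 7.47, 7.38 and 7.52 in the D5W then sorafenib rats. The groups did not overlap, and Ndufa4l2 differed by -0.61 ± 0.08 log2 (adjusted p = 1.24e-09). After oxaliplatin the 6 h Ndufa4l2 values were 7.94, 8.10, 8.08 and 8.01 with the vehicle and 7.90, 8.02, 7.99 and 8.00 with sorafenib, an overlapping difference of -0.05 ± 0.08 (adjusted p = 0.725). This change between infusions was 0.56 ± 0.11 (adjusted p = 0.00011). The 6 h D5W then sorafenib group is one of the 2 with divergent beta-actin, and with the covariate its Ndufa4l2 difference was -0.56 (adjusted p = 0.000115). The other divergent group, 24 h D5W then sterile water, had no sorafenib and was also low for both genes. Its means were 7.68 for Ndufa4l2 and 6.59 for Cox4i2. The medians of the other 22 group means were 8.06 and 6.95.

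At 24 h, outside the 2 groups with divergent beta-actin, Ndufa4l2 was lower after either infusion. The D5W pair was not matched on the beta-actin difference, with medians of 0.240 for sorafenib and 0.448 for F68/PG/PEG400. After oxaliplatin these medians were 0.404 and 0.437. Ndufa4l2 after D5W was 7.91, 7.87, 7.85 and 7.93 with F68/PG/PEG400 and 7.47, 7.46, 7.50 and 7.63 with sorafenib, a difference of -0.37 ± 0.08 (adjusted p = 0.00107). After oxaliplatin the Ndufa4l2 values were 7.87, 8.08, 8.11 and 7.88 against 7.43, 7.49, 7.57 and 7.37, a difference of -0.52 ± 0.08 (adjusted p = 4.27e-06). Neither pair of groups overlapped, and the change between infusions was -0.15 ± 0.11 (adjusted p = 0.9997). At 1 h after D5W the difference was 0.01 (adjusted p = 0.936). These 3 Ndufa4l2 calls, at 6 h after D5W and at 24 h after either infusion, held in each of their 13 alternatives.

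Cox4i2 followed at 6 h. Its probe set was dim in the heart, at a mean of 6.86, where the median over tested genes was 8.29. Cox4i2 was 7.08, 6.94, 7.02 and 6.96 in the D5W then F68/PG/PEG400 rats and 6.61, 6.21, 6.29 and 6.45 with sorafenib, again without overlap, a difference of -0.61 ± 0.10 (adjusted p = 2.10e-07; -0.65 with the covariate, adjusted p = 0.000184). After oxaliplatin Cox4i2 was 7.34, 6.89, 7.20 and 7.01 against 6.82, 7.02, 7.11 and 6.85, a difference of -0.16 ± 0.10 (adjusted p = 0.303). The change between infusions at 6 h was 0.45 ± 0.14 (adjusted p = 0.012), and it includes the D5W then sorafenib group with divergent beta-actin. By the F test over all times in limma, the Cox4i2 change between infusions was not past the threshold (adjusted p = 0.054). At 24 h the Cox4i2 differences were -0.23 ± 0.10 (adjusted p = 0.124) and -0.17 ± 0.10 (adjusted p = 0.426).

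**Figure D4:**
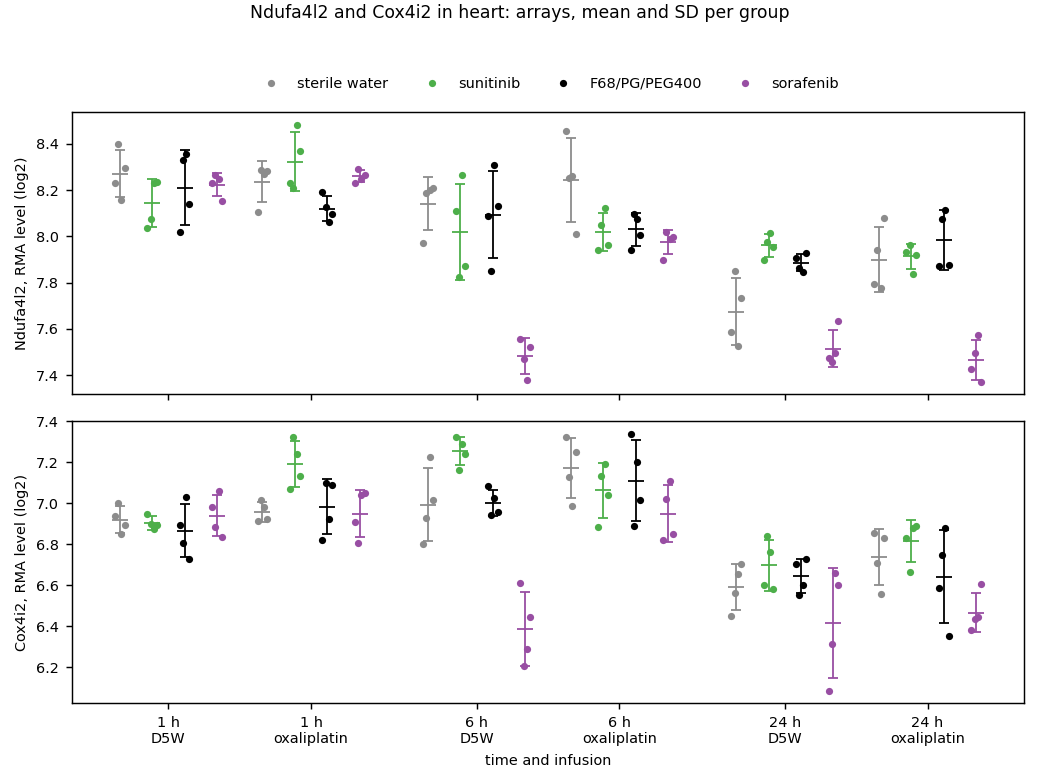
Log2 intensity of Ndufa4l2 and Cox4i2 (vertical axis) in all heart groups by time after dosing; points are arrays, with the mean ± SD of 4. Ndufa4l2 with sorafenib at 24 h lies at 7.46 to 7.63 after D5W and 7.37 to 7.57 after oxaliplatin, below the F68/PG/PEG400 rats of each infusion.

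Markers of other heart cells moved at the same times. Of 9 macrophage markers 5 fell at 6 h after D5W, with a mean level of 8.49 to 8.71 against 8.82 to 9.47 in the vehicle rats (C1qb -1.13). At 24 h 6 of 9 fell after D5W (mean level 7.73 to 8.45 against 8.58 to 9.38) and 9 of 9 after oxaliplatin (7.44 to 7.75 against 8.59 to 9.07). Kdr, the endothelial receptor for vascular endothelial growth factor, was at -0.47 at 6 h after D5W, -0.96 at 24 h after D5W and -0.70 at 24 h after oxaliplatin. It is a single gene among the 7 endothelial markers and does not stand for them. The 24 h counts of these markers are not given here. Of 7 endothelial markers 3 rose and 2 fell at 6 h after D5W, and 5 of 7 fibroblast markers rose. The part of these cells in the Ndufa4l2 and Cox4i2 differences was not tested.

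Beyond these genes, the 6 h heart comparison of sorafenib after D5W called 21 members higher and 13 lower, beside 41.9% of all genes (18.2% higher, 23.7% lower). Complex I gave 7 higher and 5 lower of 34, its assembly factors 2 and 1 of 6, complex II 1 and 0 of 4, complex III 3 and 1 of 7, complex IV 3 and 4 of 14, and complex V 3 and 1 of 15. Uqcrc2 stood at 13.51, 13.45, 13.48 and 13.55 with F68/PG/PEG400 and at 13.68, 13.75, 13.76 and 13.78 with sorafenib, a rise of 0.24 ± 0.04 (adjusted p = 4.98e-07) without overlap. Ndufv3 was 13.06, 12.98, 12.94 and 13.13 against 12.80, 12.74, 12.74 and 12.58, a difference of -0.31 ± 0.06 (adjusted p = 5.51e-06), also without overlap. The general isoform Cox6a1 differed by -0.24 ± 0.05, Atp5f1d, the delta subunit of complex V, by -0.24 and Cox8a by -0.19. These 3 genes were also low in the other group with divergent beta-actin, 24 h D5W then sterile water, which had no sorafenib. They averaged 12.62, 13.26 and 13.06 there, where the medians of the other 22 heart group means were 12.83, 13.54 and 13.23. Atp5if1 was higher by 0.37 ± 0.09 (adjusted p = 0.000337), but by 0.09 (adjusted p = 0.247) when its probe sets were averaged. With the beta-actin covariate 15 members were called, 7 higher and 8 lower, with Uqcrc2 at 0.32, Ndufv3 at -0.30 and Cox6a1 at -0.24, all still called.

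After oxaliplatin the same 6 h comparison called 1 heart member, Ndufaf5, which rose by 0.25 (7.57% of genes). The change of the sorafenib effect between infusions was past the threshold for 10 of 84 members by the F test over the 3 times, beside 18.5% of genes, or 6 members with the covariate. Named in order of p, they included Uqcrc2, Ndufa4l2, Cox8a, Cox6a1 and Cox4i1. The corresponding sunitinib test found 7 members (17.2% of genes; 7 with the covariate and 15 with array weights), Ndufaf3 and Ndufa3 first. At 1 h after D5W sorafenib lowered 7 heart members and raised none (12.2% of genes, 9.63% lower), among them 4 of the 6 assembly factors: Ndufaf4 (-0.23), Ndufaf5 (-0.22), Ndufaf8 (-0.19) and Ndufaf3 (-0.18). After the heart arrays were quantile-normalized again, 0 members were called in this comparison, with the covariate 4 were, and leaving out 1 array gave 2 to 10. After oxaliplatin at 1 h only the dim probe set of Cox5a was called (0.32; 2.15% of genes). At 24 h the called members were Ndufa4l2 and Cox6c-ps1 (0.31) after D5W (7.05% of genes) and Ndufa4l2 alone after oxaliplatin (1.72% of genes).

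In the liver at 24 h sorafenib after D5W came with the widest shift of members in any drug comparison: 5 of 80 were higher and 55 lower. The background was wide too, with 67.3% of 11619 genes called, 19.1% higher and 48.2% lower. The calls of the members leaned further to lower, while their median of -0.20 stood beside -0.24 over all genes. Liver members also had a smaller median SD within groups, 0.0739 against 0.1401 over other genes, and the part of this in the share of calls was not tested. The D5W then sorafenib group holds 3 arrays. When the liver arrays were quantile-normalized a second time, which moved the median of all genes by 0.195, 16 members were higher and 12 lower, and 53.3% of genes were called. The members' median was then 0.01 and that of all genes -0.05. In all, 12 members were called lower and 5 higher under both scalings, and 1 turned from lower to higher.

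The assembly factors of complex I were the class lowest under both. All 6 were lower as deposited, with a median of -0.72, and 4 of 6 after the second normalization, with a median of -0.51: Ndufaf1, Ndufaf4, Ndufaf5 and Ndufaf7. Ndufaf7 stood at 8.08, 8.03, 8.13 and 7.93 in the D5W then F68/PG/PEG400 rats and at 7.33, 7.33 and 7.03 in the D5W then sorafenib rats, without overlap. The difference was -0.81 ± 0.10 (adjusted p = 3.48e-10) and -0.76 after the second normalization (adjusted p = 2.65e-09). After oxaliplatin Ndufaf7 was 8.04, 7.72, 7.62 and 7.45 with the vehicle and 7.70, 7.48, 7.80 and 7.75 with sorafenib, a difference of -0.03 (adjusted p = 0.91) with overlap. The change between infusions was 0.79 ± 0.14 (adjusted p = 2.73e-05). Ndufaf5 differed by -0.74 as deposited and -0.65 after the second normalization, Ndufaf1 by -0.78 and -0.74, and Ndufaf4 by -0.70 and -0.37 (adjusted p = 0.0479).

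The lowest single member was Atp5if1, the ATP synthase inhibitor. Its levels were 9.96, 10.11, 10.29 and 10.00 in the D5W then F68/PG/PEG400 rats and 8.74, 8.49 and 9.08 with sorafenib. That difference, -1.32 ± 0.14 (adjusted p = 2.80e-12), was 2.49-fold, and -0.96 after the second normalization (adjusted p = 1.09e-09). Averaging the probe sets of Atp5if1 gave -0.52. After oxaliplatin Atp5if1 was 9.88, 9.87, 9.86 and 9.69 against 9.84, 8.45, 9.65 and 9.72, a difference of -0.41 ± 0.13 (adjusted p = 0.0757), and a single rat, at 8.45, lay far below the other 3. The change between infusions was 0.91 ± 0.19 (adjusted p = 0.000248).

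The subunits moved less. As deposited, 27 of 34 complex I subunits were lower and 1 was higher (median -0.23), but 3 were lower and 6 higher after the second normalization. Lower in both were Ndufa8, an accessory subunit (-0.72, then -0.43), Ndufs1 (-0.57, then -0.19, adjusted p = 0.0397) and Ndufc2 (-0.50, then -0.14, adjusted p = 0.0267). In complex II all 4 subunits were lower as deposited, at -0.27 to -0.32, and only Sdhb in both (-0.12 after the second normalization, adjusted p = 0.036). Complex III gave 4 of 7 lower, with Uqcrc2 (-0.64, then -0.37) lower in both, and complex V gave 7 of 15, of which Atp5mg and Atp5po were lower in both. Complex IV gave 5 of 11 lower and 3 higher, then 0 and 3, with Cox5a (0.35), Cox7a1 (0.24) and Cox4i1 (0.10) higher in both. The Cox5a and Cox7a1 probe sets were dim in the liver, at means of 7.55 and 6.60, where the median over tested genes was 8.38. Overall array medians were 6.74 to 6.78 in the D5W then sorafenib group and 6.69 to 6.71 in its F68/PG/PEG400 control.

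**Figure D5:**
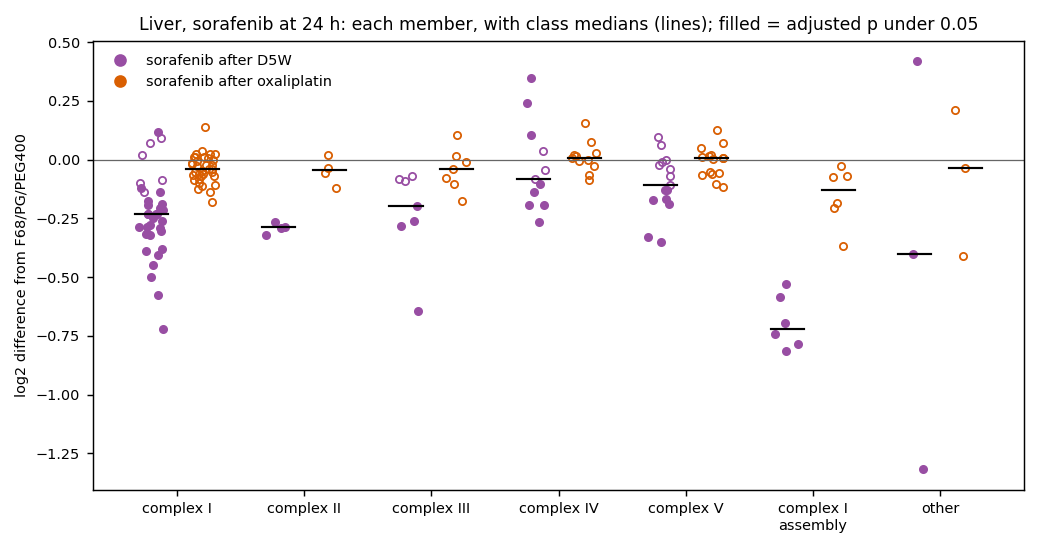
Log2 differences of liver members between sorafenib and F68/PG/PEG400 at 24 h (vertical axis) by class, after D5W and after oxaliplatin; lines are class medians and filled points have an adjusted p under 0.05. After D5W the assembly factors have the lowest class median, -0.72, and after oxaliplatin no member is filled.

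After oxaliplatin the 24 h liver comparison called no member (limma; 12 of 80 at an unadjusted p under 0.05; 1.38% of genes). At 24 h the change between infusions was upward for 31 members and downward for none (38.2% of genes, 28.7% upward), and the F test over the 3 times found 22 (22.2%), or 5 after the second normalization. The distribution of the arrays moved with these results: the 95th percentile of the D5W then sorafenib arrays was 10.83 to 11.02, against 11.24 to 11.35 with F68/PG/PEG400, and the oxaliplatin then sorafenib rat with the low Atp5if1 had 10.97, against 11.16 to 11.23 in the other 3 of its group. Liver macrophage markers fell for 9 of 9 after D5W (Lyz2 -1.61, mean level 9.61 to 9.89 against 10.32 to 10.91), and endothelial markers for 5 of 6 (Stab2 -1.24). After the second normalization these counts were 3 of 9 and 4 of 6. Of 10 hepatocyte markers 1 rose and none fell. The part of the array distribution and of these cells was not tested.

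Counts for the other genes of the pathway also depended on the scaling in that comparison. Of 15 complex IV assembly factors 12 were lower and 1 higher as deposited, and 7 and 3 after the second normalization. Sco1, a copper carrier, was at -0.88 as deposited and -0.52 after the second normalization, and Cox20 at 0.93 and 0.98. Of 16 electron carrier and coenzyme Q genes 11 were lower and 1 higher, then 3 and 1. Coq7 and Coq3, both enzymes of coenzyme Q synthesis, were at -0.89 and -0.71 as deposited, then at -0.91 and -0.31. Of 12 tricarboxylic acid cycle enzymes 9 were lower and none higher, with citrate synthase Cs at -0.49, and after the second normalization none of the 12 was called (Cs -0.09). Among 17 regulators of mitochondrial biogenesis 4 were higher and 8 lower, then 5 and 5. The coactivator Ppargc1a was at 0.98 as deposited and then 1.22, and its relative Pprc1 at -0.81 and then -1.01. These 4 lists carry the same 48.2% background of lower genes as deposited.

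At 1 h and 6 h sorafenib called no liver member after D5W (limma; 2 and 1 of 80 at an unadjusted p under 0.05; 0.0689% and 0.0344% of genes) or after oxaliplatin (3 and 4; 0.189% and 0.207%). The kidney gave none after D5W at 1, 6 or 24 h (limma; 6, 0 and 18 of 84 at an unadjusted p under 0.05; 0%, 0.0731% and 0.203% of genes) and none after oxaliplatin at 1 h or 24 h (2 and 4; 0.00812% and 0%). At 6 h after oxaliplatin 4 kidney members rose, beside 0.544% of genes called and 0.447% higher. This count was 2 to 6 with 1 of its arrays left out, 2 with the beta-actin covariate, 7 after a second normalization, 11 without the 1 h kidney array that stood apart and 17 with array weights. Cox6b1, the general form of a complex IV subunit, was 13.60, 13.55, 13.62 and 13.52 with the vehicle and 13.75, 13.77, 13.78 and 13.79 with sorafenib. The groups did not overlap, and the rise was 0.20 ± 0.03 (adjusted p = 5.63e-05). The vehicle group of this comparison had the lowest median level over the members of all kidney groups, at 12.99. Over all kept kidney arrays the mean of Cox6b1 was 13.75, so its vehicle values were low and its sorafenib values near that mean. Atp5pf rose by 0.21 ± 0.03, Uqcrq by 0.25 ± 0.06 and Uqcr10, a small complex III subunit, by 0.11. After D5W the Cox6b1 difference was 0.03 (adjusted p = 0.9996), and the change between infusions, 0.17 ± 0.04, was not past the threshold (adjusted p = 0.447).

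Time and vehicle also moved members in the rats given no drug. In the heart 11 members were higher and 27 lower at 24 h than at 1 h (49.2% of genes, 16.6% higher and 32.6% lower), Uqcrc2 by 0.27 ± 0.03 (adjusted p = 3.51e-13) and Ndufa4l2 by -0.46. The 24 h side includes the water group with divergent beta-actin. With the covariate 8 were higher and 26 lower. Water rats alone gave 14 and 16, and F68/PG/PEG400 rats alone 2 and 19, with Uqcrc2 at 0.37 and 0.17 (adjusted p = 9.92e-13 and 0.00116) and Ndufa4l2 at -0.60 and -0.33. At 6 h 1 was higher and 17 lower (36.8% of genes), with the muscle isoform Cox7a1 at -0.49 ± 0.13 (adjusted p = 0.00147) and the assembly factors Ndufaf5, Ndufaf8 and Ndufaf4 at -0.27, -0.21 and -0.20. That count of 18 was 12 with the covariate, 9 after a second normalization, 3 with water rats alone and 19 with F68/PG/PEG400 rats alone. The kidney gave none at either time (limma; 6 and 9 of 84 at an unadjusted p under 0.05; 1.98% and 3.4% of genes; 1 member at each time without the array that stood apart), and the liver 2 and 1, all lower (11.3% and 2.03% of genes). F68/PG/PEG400 against water, which is also day against day, moved 13 heart members over the 3 times by the F test (27.6% of genes; 4 members with the covariate) and 14 kidney members (7.41% of genes; 20 members without the array that stood apart and 31 with array weights), with Ndufaf5 at -0.22 and Atp5if1 at -0.21 in the kidney at 1 h. It moved no liver member by the F test (limma; 0.938% of genes), where 5, 6 and 6 had an unadjusted p under 0.05 at 1, 6 and 24 h (0.198%, 0.396% and 0% of genes called).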

How the data were processed

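RNA from rat heart, kidney and liver was hybridised to Affymetrix rat whole-genome arrays, 1 array per tissue of each rat. The authors deposited log2 intensities made with RMA, which corrects background, quantile-normalizes and summarises the probes of a set; the version, and whether RMA was run on all tissues at once, are not given in the sources used here. The deposited values ranged from 3.3781 to 15.2619 on 31099 probe sets. Of these, 20832 carried 1 gene symbol in the platform annotation, 436 several and 9831 none, and only those with 1 symbol were used. Each gene was read from its brightest set in each tissue, and 9 members had several sets. Intervals from read depth do not apply to arrays; the number of arrays limits the precision.

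One model per tissue with 24 group means was fitted with limma 3.58.1 in R 4.3.3 with version 1.17.8 of data.table. Genes above log2 6 on at least 4 arrays were tested: 84 of 11317 in the heart, 84 of 12310 in the kidney and 80 of 11619 in the liver were members. A call is an adjusted p under 0.05 (Benjamini-Hochberg). Tissues were compared in 1 model over the vehicle rats. The fits were tested on simulated data. An array of the liver and 1 of the kidney, both sorafenib after D5W at 24 h, were left out. No other arrays were near-identical (smallest root mean square difference 0.1748). Replicates are separate rats numbered in accession order.

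The members, gene lists, marker lists and tests were chosen with earlier results of these data known. Genes named are, in each comparison, up to 4 higher and 4 lower called members with the largest differences, the isoform families, Atp5if1 and the complex II subunits, and up to 2 genes of each list; others were named after their values were seen. The alternatives were a second quantile normalization within the tissue, probe sets averaged, no filter on dim genes, array weights, the beta-actin 3′ minus 5′ difference as a covariate, all arrays as labelled, and each array left out. Each oral vehicle alone, the covariate for time, vehicle and change between infusions, and the kidney without 1 array of high overall median were added after seeing the data. For tissues, centred arrays, quantile normalization over the tissues and a random block were used.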

Additional observations from a re-analysis of the deposited data

Results flagged for a closer look

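In groups of 4 rats, an array was singled out where its gap to the nearest of the others was large against the range of the group. Chance singles out about 1 in 20 groups. Of 70 groups of 4, the median level over the members stood apart in 4. In the heart at 24 h it was 13.28 in replicate 3 of oxaliplatin then F68/PG/PEG400, where the others were at 13.36 to 13.37, and 13.27 in replicate 2 of oxaliplatin then sorafenib, where the others were at 13.34 to 13.35. In the liver it was 12.32 in replicate 2 of D5W then sunitinib at 1 h (others 12.36) and 12.42 in replicate 2 of D5W then F68/PG/PEG400 at 6 h (others 12.32 to 12.33).

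Of 52 groups checked for single genes, 5 held such an array. Kidney Ndufaf4 was 11.27 in replicate 1 of oxaliplatin then F68/PG/PEG400 at 6 h, with the others at 10.96 to 11.01. Kidney Ndufaf3 at 24 h was 10.44 in replicate 2 of D5W then sterile water (others 10.66 to 10.68) and 10.89 in replicate 1 of oxaliplatin then F68/PG/PEG400 (others 10.85). Liver Atp5if1 at 24 h was 9.69 in replicate 4 of oxaliplatin then F68/PG/PEG400 (others 9.86 to 9.88) and 8.45 in replicate 2 of oxaliplatin then sorafenib (others 9.65 to 9.84).

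The effect of an oral drug differed between the D5W and the oxaliplatin rats, by the F test over the 3 times in limma, for 7 heart members with sunitinib, 10 heart members with sorafenib and 22 liver members with sorafenib. The share over all genes was 17.2%, 18.5% and 22.2%. The heart tests include 1 or both groups with divergent beta-actin, and the liver test includes the group with 3 arrays.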

How the results depend on the processing

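No paired analysis was possible because the labels give no replicate numbers that tie rats between treatment groups, and between tissues the array position, used as a random block, moved no count of calls by more than 1. Counts below are members called, with the value of the reported fit first. A second quantile normalization within the tissue changed heart sorafenib after D5W at 1 h from 7 to 0 and after oxaliplatin at 6 h from 1 to 0, and heart 6 h against 1 h from 18 to 9; kidney sorafenib after oxaliplatin at 6 h from 4 to 7, after D5W at 24 h from 0 to 1 and kidney 6 h against 1 h from 0 to 1; and in the liver oxaliplatin at 6 h from 2 to 5, sunitinib after D5W at 24 h from 0 to 1, sorafenib at 24 h after D5W from 60 to 28 and after oxaliplatin from 0 to 1, 6 h against 1 h from 2 to 4, 24 h against 1 h from 1 to 2, and the change of the sorafenib effect from 22 to 5. Averaging probe sets gave 5 for heart sunitinib after D5W at 1 h (3), 2 for heart sorafenib after oxaliplatin at 1 h (1), 3 for kidney sunitinib after oxaliplatin at 1 h (0), 1 for liver oxaliplatin at 1 h (0), and 1 and 2 for liver 6 h and 24 h against 1 h (2 and 1). Without the filter on dim genes, kidney sunitinib after oxaliplatin at 1 h gave 1 (0), liver oxaliplatin at 6 h 1 (2) and liver 24 h against 1 h 0 (1). Array weights gave 5 for heart sunitinib after D5W at 1 h (3), 15 for the heart change of the sunitinib effect (7), 13 for kidney oxaliplatin at 6 h (8), 17 for kidney sorafenib after oxaliplatin at 6 h (4), 1 for kidney sorafenib after D5W at 24 h (0), 2 for kidney 6 h and 2 for 24 h against 1 h (0 each), 31 for kidney F68/PG/PEG400 against water (14), 1, 6 and 6 for liver oxaliplatin at 1, 6 and 24 h (0, 2 and 3), 1 for liver sorafenib after oxaliplatin at 6 h (0), and 8 and 3 for liver 6 h and 24 h against 1 h (2 and 1).

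With the beta-actin covariate, heart sunitinib after D5W gave 0 at 1 h (3) and 10 at 24 h (22), heart sorafenib after D5W 4 at 1 h (7) and 15 at 6 h (34) and after oxaliplatin 0 at 1 h (1) and 2 at 6 h (1), heart oxaliplatin at 24 h 5 (10), the heart change of the sorafenib effect 6 (10), heart F68/PG/PEG400 against water 4 (13), kidney 24 h against 1 h 1 (0), kidney sorafenib after oxaliplatin at 6 h 2 (4) and liver oxaliplatin at 1 h 1 (0). Without the kidney array that stood apart in its distribution, chosen after seeing the data, kidney sorafenib after oxaliplatin at 6 h gave 11 (4) and kidney 6 h and 24 h against 1 h 1 each (0 each), and no other kidney count moved by more than 1.5 times. With all arrays as labelled, sorafenib after D5W at 24 h gave 42 in the kidney (0) and 32 in the liver (60), by construction, since each then holds an array with the other tissue's markers. With water rats alone the counts were 3 for heart 6 h against 1 h (18), 4 and 3 for kidney oxaliplatin at 6 and 24 h (8 and 14), 0 and 0 for liver oxaliplatin at 6 and 24 h (2 and 3), and 0 and 0 for liver 6 h and 24 h against 1 h (2 and 1). With F68/PG/PEG400 rats alone they were 0 for heart oxaliplatin at 24 h (10), 21 for heart 24 h against 1 h (38), 3 for kidney oxaliplatin at 24 h (14), 1 for kidney 24 h against 1 h (0), 0 for liver oxaliplatin at 6 h (2), and 1 and 0 for liver 6 h and 24 h against 1 h. Single-vehicle counts rest on fewer rats. For the others the cause was not tested.

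Leaving out 1 array at a time gave 4 to 11 for heart oxaliplatin at 24 h and 12 to 21 for heart sunitinib after D5W at 24 h, each lowest without replicate 1 of the 24 h D5W then sterile water group. The ranges were 1 to 4 for heart sunitinib after D5W at 1 h, 2 to 10 and 1 to 2 for heart sorafenib after D5W at 1 and 24 h, 0 to 1 and 0 to 2 for heart sorafenib after oxaliplatin at 1 and 6 h, 5 to 10 and 9 to 16 for kidney oxaliplatin at 6 and 24 h, 2 to 6 for kidney sorafenib after oxaliplatin at 6 h, and 0 to 11 for kidney sunitinib after oxaliplatin at 1 h. In the liver they were 0 to 1, 0 to 4 and 0 to 4 for oxaliplatin at 1, 6 and 24 h, and 0 to 1 for sorafenib after oxaliplatin at 6 h and at 24 h.

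Single genes changed direction in 19 cases, 18 of them between tissues. With arrays centred, heart minus kidney became 0.62 for Atp5mc3, 0.58 for Cox7a2l, 0.53 for Ndufa4, 0.47 for Sdha, 0.33 for Sdhc and 0.37 for Sdhd, and kidney minus liver became -0.23 for Atp5mc3, -0.19 for Cox4i1, -0.0597 for Cox6a2, -0.15 for Cox7a1, -0.14 for Ndufa4 and -0.26 for Sdhb. Quantile normalization over the tissues gave heart minus kidney of 0.69 for Cox7a2l, 0.0267 for Ndufa4, 0.13 for Sdha and 0.0137 for Sdhd, heart minus liver of 0.25 for Cox6a1 and kidney minus liver of -0.14 for Cox7a1. Averaging probe sets gave -0.0261 for kidney Atp5if1 after oxaliplatin at 24 h. Of the other single-gene values, 612 kept their direction and call and 54 lost the call; with 1 array left out, 4106 kept and 134 lost it.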
